A study of Mus musculus with 6 samples.

Results

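The genes described here are 30 genes of the p53 pathway and the DNA damage response, chosen by symbol from the deposited table of all genes: p53 itself and its regulators, its targets in arrest, death and repair, the checkpoint kinases and genes of homologous recombination. All 30 symbols were in the table, and 29 of them were among the 12008 genes with enough reads to test. They were measured by RNA sequencing of long-term haematopoietic stem cells (LT-HSC), the cells at the top of the blood hierarchy that can rebuild it for life. The cells were sorted from lineage-depleted mouse bone marrow as Sca-1 and Kit positive cells that lacked CD34, CD48 and Flk2 and carried CD150. Mice of the first group were C57BL/6 homozygous for an Itpkb allele that was induced with the mutagen ENU (the label names it Ms T-less), and the gene encodes a kinase of inositol trisphosphate. The other group held C57BL/6 WT littermate controls. Each genotype had 3 libraries, each from a separate pool of 4 age-matched mice with at least 10000 sorted cells, so no library shows the spread between single mice. No damaging agent is named in the labels, so the values describe cells with no recorded damaging treatment. The ENU allele was present in all cells of the animal, so a change within LT-HSC cannot be told apart from one that started in other cells.

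p53 is a transcription factor that is kept scarce by Mdm2, a ubiquitin ligase, and its partner Mdm4. When DNA breaks or replication stalls, the kinases Atm and Atr and their followers Chek2 and Chek1 act on p53, Mdm2 and the cell cycle, and stabilised p53 switches on genes that stop the cycle, repair DNA or start apoptosis. Mdm2 is itself a p53 target, which closes the loop. Most of this control works on proteins, so mRNA levels of p53 and of the kinases do not report their activity, while the mRNA of p53 targets is commonly used as a read-out. In haematopoietic stem cells p53 is known for keeping cells quiescent and for removing damaged ones.

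The libraries held 4024203 to 7470329 reads assigned to genes, and values are normalized CPM, read counts that the authors scaled to a common library size. A single read stood for 0.131 to 0.249 normalized CPM, which puts the floor of detection, set at 3 reads, between 0.393 and 0.746. Itpkb itself measured 10.2, 13.99 and 18.2 in the Itpkb-/- pools against 22.1, 23.6 and 25.1 in WT, so all 3 mutant libraries lay below all 3 WT libraries and none was without reads (limma, adjusted p = 0.172, and 0.0541 when same-numbered libraries were paired). All 17 markers of stem cells and of the sort gate lay above the floor in at least 1 library, and Kit was at 615 to 911 normalized CPM. Of these 17, limma called 6 lower and none higher, and with same-numbered libraries paired 9 lower and 2 higher. Over all genes tested it called 3.24% lower and 2.27% higher, and with the pairing 8.97% and 9.15%. Some markers of other cells were called as well, more of them with same-numbered libraries paired than without. The summed level of 14 granulocyte genes reached 6720, 18742 and 967 normalized CPM in Itpkb-/- pools 1, 2 and 3, against 3852, 2708 and 745 in WT, higher in Itpkb-/- in each same-numbered pair. All 14 had a positive difference (median 1.10), none was called by limma and 13 were called higher with the pairing. The sum of 10 T and NK cell genes was also higher in each pair (177, 292 and 99.3 against 73.4, 119 and 75.6); of the 4 tested, none was called, and 1 was with the pairing. Of 10 megakaryocyte genes 3 were called higher and 1 lower, and of 10 erythroid genes 1 higher and 1 lower (with the pairing 4 and 1, and 3 and 4). The sum of 10 monocyte and dendritic genes was higher in Itpkb-/- in each pair (50.8, 33.9 and 11.9 against 28.6, 17.2 and 8.94). Of the 6 tested, 5 had a positive difference (median 0.82), none was called, and 2 were called higher with the pairing. Of 4 tested stromal and endothelial genes 1 was lower (1 higher and 1 lower with the pairing). The sum of 10 B cell genes overlapped (32.4 to 40.1 in Itpkb-/- and 32.8 to 43.3 in WT). Cd3g, Cd8a and Pax5 had no read in any library. The G2 and M phase genes, a list of 25 without any of the 30, summed to 1651, 3603 and 2824 in Itpkb-/- libraries 1, 2 and 3 and to 1214, 2012 and 1999 in WT libraries. In each same-numbered pair the Itpkb-/- library was the higher one. The part of these markers in the results was not tested.

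The upstream sequences of 5 of the genes are shown. Plk2 was the gene that fell, Bax, Brca1 and Brca2 rose when same-numbered libraries were compared, and Mdm2 is the feedback arm of p53. H2afx rose in that comparison too but had no matching RefSeq start, so its sequence is not shown. Each run is the 250 bases before the RefSeq transcription start (build GRCm38.p6), 5′ to 3′ on the gene's strand. Capitals mark matches, on either strand, to the p53 decamer consensus, to the cell cycle element TTTGAA, to an E2F-type GCGGGAA, to CCAAT or to the cyclic AMP element TGACGTCA. The last of these was added after the Plk2 sequence had been seen.
Plk2, chr13:110394794-110395043, plus strand: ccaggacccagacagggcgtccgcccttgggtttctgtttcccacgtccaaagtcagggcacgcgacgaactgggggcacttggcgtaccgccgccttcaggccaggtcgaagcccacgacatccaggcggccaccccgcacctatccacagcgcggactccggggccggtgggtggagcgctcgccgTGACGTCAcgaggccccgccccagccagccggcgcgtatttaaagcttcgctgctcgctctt
Bax, chr7:45466899-45467148, minus strand: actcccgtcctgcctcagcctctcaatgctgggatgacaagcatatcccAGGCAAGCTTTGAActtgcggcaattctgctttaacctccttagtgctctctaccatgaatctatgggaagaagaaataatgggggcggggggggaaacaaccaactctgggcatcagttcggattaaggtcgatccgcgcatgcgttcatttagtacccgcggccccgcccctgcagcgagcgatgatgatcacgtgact
Brca1, chr11:101551956-101552205, minus strand: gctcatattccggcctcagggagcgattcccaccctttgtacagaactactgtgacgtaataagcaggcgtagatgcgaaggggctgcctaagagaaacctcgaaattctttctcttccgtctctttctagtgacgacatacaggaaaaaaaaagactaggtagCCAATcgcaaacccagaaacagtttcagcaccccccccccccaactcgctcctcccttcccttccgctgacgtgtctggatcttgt
Brca2, chr5:150522371-150522620, plus strand: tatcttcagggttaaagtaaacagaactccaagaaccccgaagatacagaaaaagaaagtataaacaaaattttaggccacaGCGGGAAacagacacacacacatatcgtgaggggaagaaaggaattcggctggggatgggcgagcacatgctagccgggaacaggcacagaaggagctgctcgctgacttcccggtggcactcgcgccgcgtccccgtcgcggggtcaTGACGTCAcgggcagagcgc
Mdm2, chr10:117710759-117711008, minus strand: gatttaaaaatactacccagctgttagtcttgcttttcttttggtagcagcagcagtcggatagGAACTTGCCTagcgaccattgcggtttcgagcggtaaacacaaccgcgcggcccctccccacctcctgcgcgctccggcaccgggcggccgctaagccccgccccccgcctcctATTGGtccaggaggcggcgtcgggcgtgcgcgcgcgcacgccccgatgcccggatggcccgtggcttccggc
In Bax the p53 decamer starts 201 bases before the start and shares its last bases with a cell cycle element, TTTGAA, which lies at 193. In Mdm2 the decamer starts 186 bases before the start and an inverted CCAAT lies at 72. The Plk2 stretch held 1 match, a TGACGTCA 62 bases before the start, and Brca2 held the same element at 20 and the E2F-type GCGGGAA lies at 168. RefSeq entries matched 22 of the 30 genes with 29 starts. The p53 decamer was found before 8 of these 29 starts (27.6%) and before 7.13% of 32851 mouse starts, TTTGAA before 4 (13.8%, against 16.0%), GCGGGAA before 4 (13.8%, against 3.82%), CCAAT before 14 (48.3%, against 33.9%) and TGACGTCA before 2 (6.90%, against 1.55%). These shares are descriptions only. Many of the genes were chosen as p53 targets, and the Plk2 match to TGACGTCA was seen before that search. A match describes the letters only, and much of p53's known binding, as in the first intron of Mdm2, lies outside such a window.

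Of the 29 genes that passed the filter on low values, 1 was lower in Itpkb-/- LT-HSC and none was higher (limma, adjusted p of at most 0.15, the study's own limit), with 28 not called. Over all 12008 genes tested 5.50% were called, 2.27% higher and 3.24% lower, so 1 in 29 is near the background. Of the 29, 3 had an unadjusted p under 0.05 (15.5% of all genes tested), and at an adjusted p of at most 0.05 limma called 1, Plk2 (1.52% of all genes tested). On the recovered reads edgeR likewise called 1 of the 29 lower and none higher, where it called 3.46% of all genes lower and 2.38% higher. DESeq2 did the same, with 4.13% of all genes lower and 3.56% higher. The median log2 difference of the 29 was 0.03, beside 0.00 for all genes tested, with 15 positive and 14 negative. The fit that pairs same-numbered libraries (the replicate block) called 4 of the 29 higher and 1 lower, where it called 9.15% of all genes higher and 8.97% lower. Differences are on the log2(normalized CPM + 1) scale, Itpkb-/- minus WT, which understates changes of low genes.

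**Figure D1:**
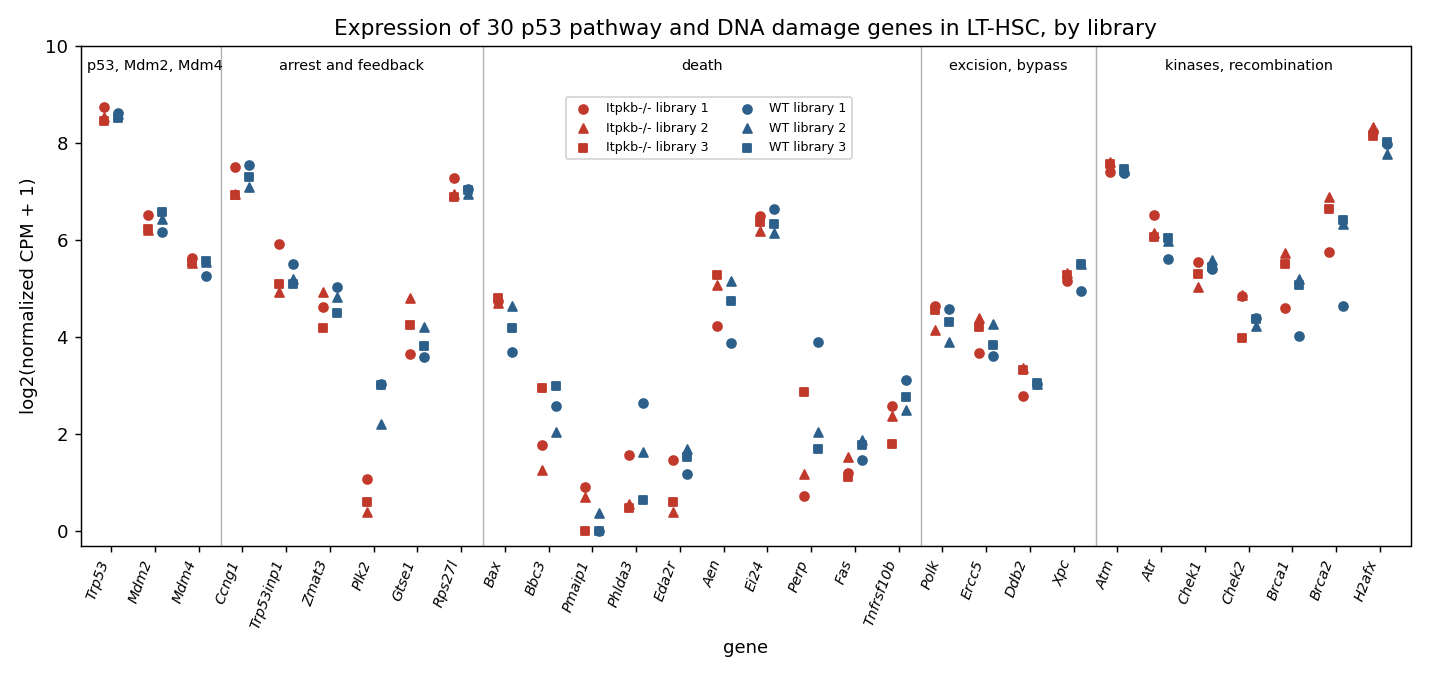
Values of the 30 genes on a log2(normalized CPM + 1) axis, 1 symbol per library, red for Itpkb-/- and blue for WT, ordered by role. Plk2 is the gene whose genotypes stand farthest apart; Trp53 and the other abundant genes overlap or nearly touch, and several death genes lie near the floor.

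Trp53, which encodes p53 (chromosome 11, 69580359 to 69591873, plus strand, build mm10), measured 425, 372 and 350 normalized CPM in Itpkb-/- pools 1, 2 and 3, against 393, 385 and 365 in WT. The WT values lay inside the range of the Itpkb-/- values. Itpkb-/- averaged 382.3 ± 38.3 and WT 381.3 ± 14.6 (SD, n = 3 per genotype), which is -0.00 on the log2 scale with a 95% interval from -0.27 to 0.27 (limma, adjusted p = 1.000). Mdm2 (chromosome 10, 117688875 to 117710758, minus strand) was at 90.0, 72.4 and 73.9 in Itpkb-/- against 71.1, 84.9 and 95.1 in WT libraries, with a difference of -0.08 (interval -0.43 to 0.27). The order of the genotypes turned between pairs: Mdm2 was higher in Itpkb-/- in pair 1 and lower in pairs 2 and 3. Mdm4, which holds p53 inactive without degrading it, was at 48.4, 45.2 and 45.5 in Itpkb-/- against 37.1, 45.7 and 46.2 in WT libraries (0.11, interval -0.24 to 0.47). Neither ligase partner was called (adjusted p = 0.861 for Mdm2 and 0.805 for Mdm4, limma).

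Among 6 genes of arrest and feedback, Plk2 fell. It encodes polo-like kinase 2, a stress-induced and p53-induced kinase of the G1 and S phases and of centriole duplication (chromosome 13, 110395046 to 110400844, plus strand). Plk2 measured 1.09, 0.311 and 0.524 normalized CPM in Itpkb-/- pools 1, 2 and 3, which are 5, 2 and 4 reads, against 7.21, 3.59 and 7.07 in WT libraries, which are 29, 24 and 38 reads. All 3 Itpkb-/- libraries lay below all 3 WT libraries, and Itpkb-/- library 2 was under the floor. The log2 difference was -2.06 (SE 0.39, 95% interval -2.92 to -1.21, limma adjusted p = 0.0317). The summed reads, 11 against 91, give a WT level 9.60 times the Itpkb-/- level, with an exact interval of 5.12 to 19.9 that covers counting error only. The call held with the replicate block (adjusted p = 0.00394) and with edgeR (0.0239) and was lost without WT replicate 3 (0.195), with a range of 0.0414 to 0.195 over the 6 fits without 1 library.

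Plk2 is also an immediate early gene, induced within minutes by serum or stress, so genes that respond to cell handling are given beside it. Of 14 tested genes of that list (Fos, Jun, Egr1, heat shock genes and the like) 2 were lower, Jun and Dnajb1, none was higher, 12 had negative differences and the median was -0.57. Limma called 3.24% of all genes tested lower, and 8.97% with the replicate block, with which 9 of these 14 fell. The part of this shift in the Plk2 difference was not tested.

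The other 5 genes of this group did not pass. Ccng1, an atypical cyclin and one of the most constant p53 targets, was at 180, 123 and 120 normalized CPM in Itpkb-/- against 186, 136 and 156 in WT libraries. Its difference was -0.18 (interval -0.58 to 0.21), lower in Itpkb-/- in each same-numbered pair. Trp53inp1, a p53 cofactor, differed by 0.05 and Zmat3, an RNA-binding p53 target, by -0.20, with overlapping libraries. Rps27l, a p53-induced paralogue of a ribosomal protein whose reads may be shared with that close relative, differed by 0.03 (interval -0.28 to 0.34). Gtse1, a G2 protein that moves p53 out of the nucleus, was at 11.5, 27.0 and 18.0 in Itpkb-/- against 10.9, 17.3 and 13.0 in WT libraries, a difference of 0.37. In both genotypes Gtse1 was highest in library 2, as the G2 and M phase sum was.

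**Figure D2:**
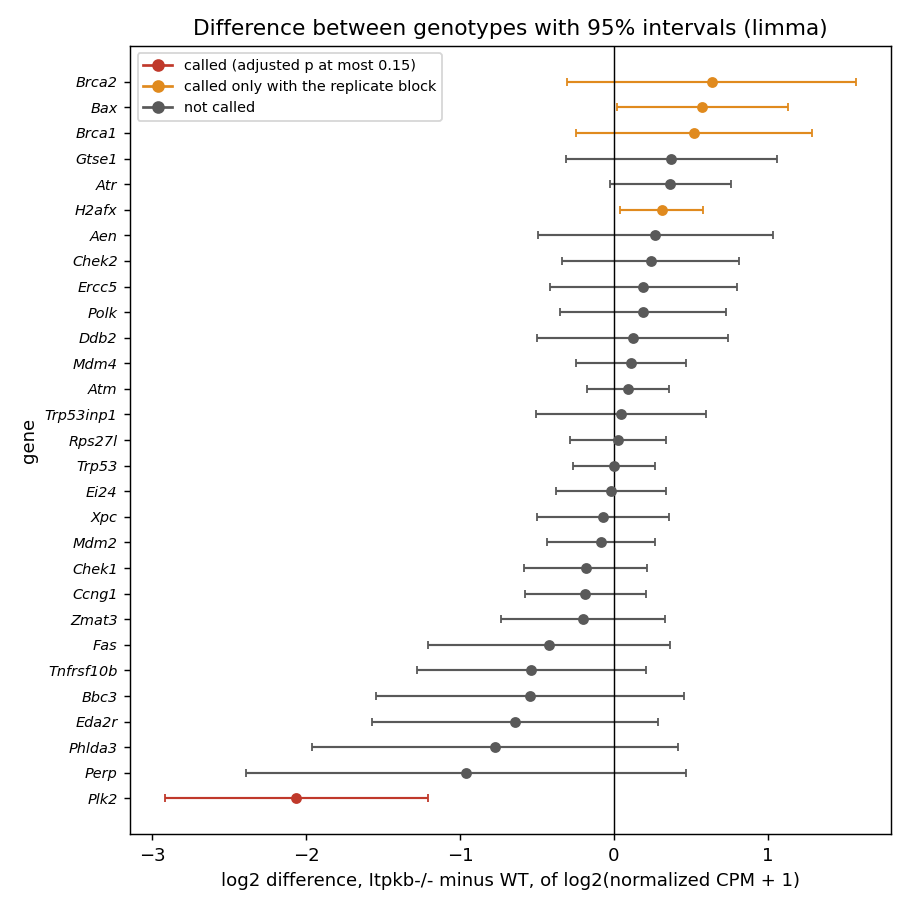
Log2 differences (Itpkb-/- minus WT) of the 29 genes tested, with 95% intervals from limma, each gene on its own line. The Plk2 interval lies wholly below 0; the intervals of Bax and H2afx lie just above 0 and those of the other 26 genes cross it.

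The 10 death genes split by level. Bax, the pore-forming effector of mitochondrial apoptosis (chromosome 7, 45461697 to 45466898, minus strand), was at 25.7, 24.9 and 27.1 normalized CPM in Itpkb-/- against 11.9, 24.1 and 17.1 in WT libraries. The genotypes did not overlap, though Itpkb-/- library 2 and WT library 2 lay close together. The difference was 0.57 (interval 0.02 to 1.13). It was not called (limma, adjusted p = 0.305) and passed with the replicate block (adjusted p = 0.138). Without WT replicate 1, the lowest library, the difference was 0.33 (limma, adjusted p = 0.603), and over the 6 fits without 1 library it ran from 0.33 to 0.81. Aen, an apoptosis-enhancing nuclease, and Ei24, an endoplasmic reticulum protein induced by p53, differed by 0.27 and -0.02 with overlapping libraries.

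The remaining 7 death genes were low. Bbc3 and Pmaip1 encode Puma and Noxa, BH3-only proteins that set off the mitochondrial pathway, and are the main killers downstream of p53 in blood cells. Bbc3 was at 2.40, 1.40 and 6.68 normalized CPM in Itpkb-/- against 4.97, 3.14 and 6.89 in WT libraries, a difference of -0.55 (interval -1.55 to 0.45). Pmaip1 had 4, 4 and 0 reads in Itpkb-/- against 0, 2 and 0 in WT libraries, and it was the member that did not pass the filter. Summed over libraries, its 8 reads against 2 give a ratio of 3.45 with an exact counting interval of 0.688 to 33.3, so no difference was detectable at this depth.

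Fas and Tnfrsf10b, death receptors of the cell surface, were at 1.18 to 1.86 and 2.49 to 5.01 normalized CPM in Itpkb-/- and at 1.74 to 2.69 and 4.63 to 7.71 in WT libraries. Their differences were -0.42 and -0.54, with overlapping libraries. Phlda3, which blunts Akt signalling, was at 1.96, 0.466 and 0.393 in Itpkb-/- against 5.22, 2.09 and 0.558 in WT libraries (-0.77). In each pair the Itpkb-/- library was lower, but WT library 3 lay below Itpkb-/- library 1. Eda2r, a receptor of the tumour necrosis factor family, had 8, 2 and 4 reads in Itpkb-/- against 5, 15 and 10 in WT libraries. Its difference was -0.64 (interval -1.57 to 0.29). Itpkb-/- was higher in pair 1 and lower in pairs 2 and 3, and Itpkb-/- library 2 was under the floor.

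Perp, a membrane protein of desmosomes and of p53-dependent death, had the widest interval of the 29 genes tested. It was at 0.653, 1.24 and 6.29 in Itpkb-/- against 13.9, 3.14 and 2.23 in WT libraries. Itpkb-/- was lower in pairs 1 and 2 and higher in pair 3, and its interval ran from -2.39 to 0.47. Of the 9 tested death genes 7 had a negative difference and none was called (limma). One of them, Bax, had an unadjusted p under 0.05. Over all 12008 genes tested, 5980 differences were negative. The filter bears on the direction count of the death genes. Eda2r was at 1 or more in every WT library but, in Itpkb-/-, only in library 1. Phlda3 was so only in WT libraries 1 and 2 and Itpkb-/- library 1. Pmaip1, with more reads in Itpkb-/-, was left out. No death gene was called by edgeR.

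The 4 genes of excision and bypass repair overlapped between genotypes. Ddb2 and Xpc encode the damage sensors of global nucleotide excision repair, Ercc5 the nuclease that cuts on the 3′ side of the lesion, and Polk a polymerase that copies past damaged bases. Ddb2, a direct p53 target, was at 5.88, 9.32 and 9.04 in Itpkb-/- against 7.21, 7.17 and 7.26 in WT libraries, a difference of 0.12. Its 3′ part overlaps exons of Acp2 on the other strand over 652 bases, 23.8% of its exon length, and the library kit does not mark strand, so part of this signal may belong to Acp2. By share of exon length, the next largest overlaps were in Bax (192 bases, 12.2%, Gm45808 on the same strand) and H2afx (141 bases, 10.2%, Gm44335 on the other strand). Overlaps in Ei24 and Atr were longer in bases but were smaller shares (at most 6.66%). Gm45808 and Gm44335 have no value of their own in the data. Xpc differed by -0.07, Ercc5 by 0.19 and Polk by 0.19, and each interval lay within 1 log2 unit of 0.

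Among the 7 kinases and recombination genes the differences were 6 positive and 1 negative, with a median of 0.31, and none was called (limma); 1, H2afx, had an unadjusted p under 0.05. No gene of this group was called by edgeR. H2afx encodes the histone variant H2AX, whose phosphorylated form marks double-strand breaks (chromosome 9, 44334694 to 44336077, plus strand). It was at 299, 320 and 282 normalized CPM in Itpkb-/- against 250, 219 and 259 in WT libraries. All 3 Itpkb-/- libraries lay above all 3 WT libraries, averaging 300.8 ± 19.0 and 242.5 ± 20.9 (SD, n = 3 per genotype). The difference was 0.31 (SE 0.12, interval 0.04 to 0.58, limma adjusted p = 0.254), and it passed with the replicate block (adjusted p = 0.0716). Without both libraries numbered 2 it was 0.19.

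Brca2, a mediator of homologous recombination (chromosome 5, 150522630 to 150570329, plus strand), was at 53.1, 117 and 98.3 in Itpkb-/- against 23.9, 79.8 and 83.6 in WT libraries. Brca1, a ubiquitin ligase that starts recombination (chromosome 11, 101488764 to 101551955, minus strand), was at 23.3, 51.9 and 44.7 in Itpkb-/- against 15.2, 35.6 and 32.6 in WT libraries. The genotypes overlapped for both genes, because library 1 was low in each genotype, and within each same-numbered pair the Itpkb-/- library was higher. The pair differences were 1.12, 0.55 and 0.23 for Brca2 and 0.59, 0.53 and 0.44 for Brca1. Neither was called without the pairing (limma, adjusted p = 0.527 for Brca2 and 0.525 for Brca1) and both were called with the replicate block (0.0234 and 0.0732). The unpaired differences, 0.63 for Brca2 and 0.52 for Brca1, fell to 0.057 and 0.15 without WT replicate 1. They were 0.97 and 0.86 without Itpkb-/- replicate 1 and 0.40 and 0.30 without Itpkb-/- replicate 2. Library 1 of each genotype was also the lowest in the G2 and M phase sum given above; the part of that sum in the Brca1 and Brca2 values was not tested.

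**Figure D3:**
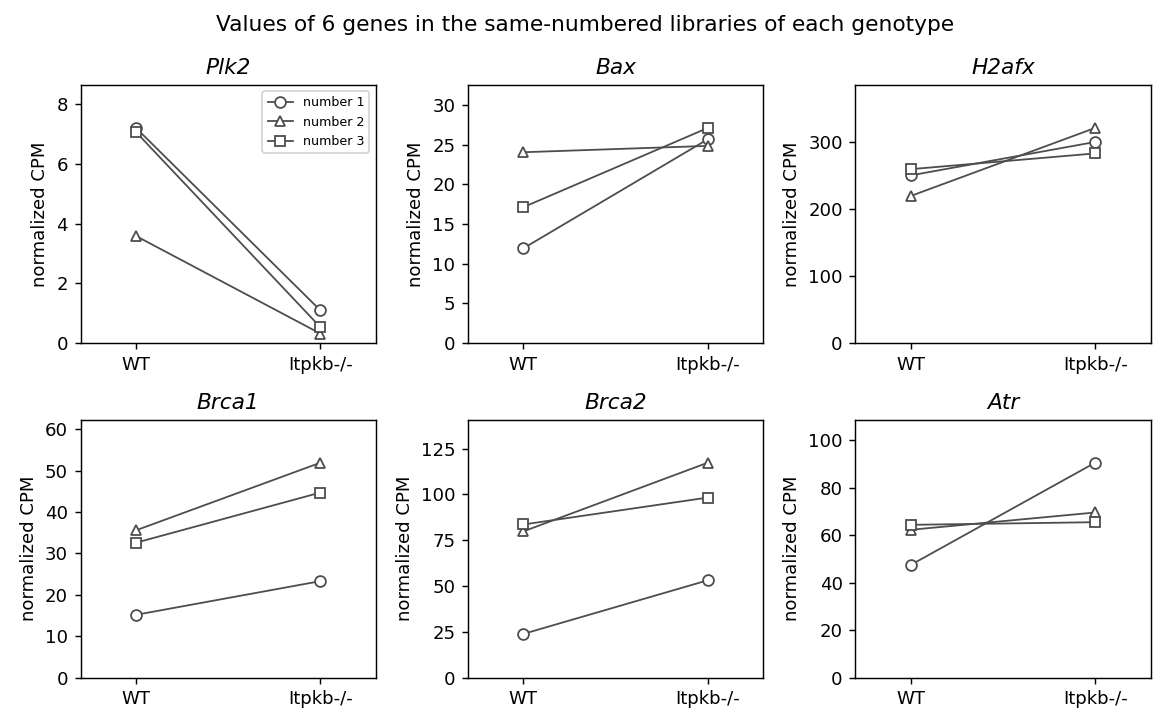
Normalized CPM of 6 genes in WT and Itpkb-/- libraries, with lines joining libraries of the same number; each vertical axis starts at 0 and has its own scale. Plk2 falls in all 3 pairs, and the other 5 genes are higher in Itpkb-/- in all 3 pairs, by little in pair 2 for Bax and in pair 3 for Atr.

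None of Atm, Atr, Chek1 and Chek2 was called by limma, with or without the replicate block or 1 library, nor by edgeR or DESeq2. Atm, which senses double-strand breaks, was at 168, 193 and 188 normalized CPM in Itpkb-/- against 165, 174 and 176 in WT libraries, a difference of 0.09 (interval -0.17 to 0.36). Atr, which senses single-stranded DNA at stalled forks, was at 90.6, 69.6 and 65.5 in Itpkb-/- against 47.5, 62.3 and 64.4 in WT libraries. The genotypes did not overlap, but Itpkb-/- library 3 and WT library 3 differed by little, and the difference of 0.37 (interval -0.03 to 0.76) was not called with the pairing either (adjusted p = 0.363 and 0.192, limma). It was 0.23 without Itpkb-/- replicate 1 and likewise 0.23 without WT replicate 1. Chek1, the follower of Atr, was at 45.7, 31.5 and 38.4 in Itpkb-/- against 41.3, 47.1 and 42.3 in WT libraries (-0.18, interval -0.58 to 0.21). Chek2, the follower of Atm, was at 27.9, 28.0 and 14.7 in Itpkb-/- against 19.9, 17.6 and 19.5 in WT libraries (0.24, interval -0.34 to 0.82), with Itpkb-/- library 3 below every WT library.

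Levels of different genes can be compared only per length, here as normalized CPM per kilobase of annotated exon over the 6 libraries, which understates genes with long alternative exons. H2afx (196 per kilobase), Rps27l (159) and Trp53 (94.4) were the most abundant of the 30, followed by Ccng1 (42.7), Atm (17.2), Ei24 (16.8), Mdm2 (16.0) and Bax (13.8). At the other end were Pmaip1 (0.109), Eda2r (0.224), Plk2 (0.735), Fas (0.905) and Tnfrsf10b (0.911). Of the 30 genes 21 were at 10 normalized CPM or more in every library and 8 were under 10 in every library, 5 of the 30 having 3 reads or fewer in at least 1 library. For 17 of 29 genes the 95% interval lay within 1 log2 unit of 0 (70.6% of all genes tested). For these a change of 1 log2 unit or more on this scale, either way, lies outside the interval. For the low death genes tested the interval reached below -1, and its upper limit was at most 0.47. A fall of 1 unit lies inside those intervals and a rise of 1 unit does not.

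Genotypes did not overlap in 4 of the 29 genes, Bax, Atr and H2afx (higher in Itpkb-/-) and Plk2 (lower), where they did not overlap in 21.3% of all genes tested. WT library 1 held the lowest value in 11 of the 29 genes (37.9%) and in 21.5% of all genes tested. Bax, Atr, Brca1 and Brca2 were among these 11 genes.

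Other targets of p53, a list of 48 genes in the table without any of the 30, were called in both directions. Of 39 tested, 3 were higher, 2 lower and 34 not called, with a median of 0.00 (limma, which called 2.27% of all genes tested higher and 3.24% lower). Tap1, the peptide transporter of antigen presentation, which interferon also induces, averaged 89.5 ± 9.22 normalized CPM in WT and rose to 139.3 ± 12.4 in Itpkb-/- libraries (SD, n = 3; 0.63 on the log2 scale, adjusted p = 0.0506). Apaf1, the scaffold of the apoptosome, rose from 43.6 ± 4.52 to 67.4 ± 4.62 (0.62, adjusted p = 0.0798). Pml, the organiser of nuclear bodies, fell by 0.54 (adjusted p = 0.118) and Trp53i11 by 0.55 (0.119). Cdkn1a, the p21 inhibitor of cyclin-dependent kinases and the classical arrest target, was at 24.2, 17.6 and 13.5 in Itpkb-/- against 12.2, 7.17 and 3.91 in WT libraries, a rise of 1.23 (adjusted p = 0.135). All 3 Itpkb-/- libraries lay above all 3 WT libraries. With the replicate block 7 of the 39 rose and 5 fell, where it called 9.15% of all genes higher and 8.97% lower. Among those that fell was Sesn1, a stress-induced brake on mTOR, by 0.51 (limma, adjusted p = 0.0173 with the block and 0.222 without).

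Each of these 5 calls was lost without WT replicate 3 (limma, adjusted p = 0.264 for Tap1, 0.288 for Apaf1, 0.342 for Pml, 0.409 for Trp53i11 and 0.403 for Cdkn1a). For Tap1 this was the only left-out library that ended the call. Without Itpkb-/- replicate 2 the adjusted p was 0.188 for Apaf1, 0.228 for Pml, 0.305 for Trp53i11 and 0.272 for Cdkn1a. Without WT replicate 2 it was 0.214 for Apaf1, 0.163 for Pml and 0.243 for Cdkn1a, and without WT replicate 1 it was 0.311 for Pml and 0.276 for Trp53i11. The Pml call was also lost without Itpkb-/- replicate 3 (0.228) and the Cdkn1a call without Itpkb-/- replicate 1 (0.221).

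Repair and checkpoint genes outside the 30 had mostly small positive differences. Of 123 genes in 4 lists, 3 were higher, none was lower and 120 were not called (limma). Over all genes tested limma called 2.27% higher and 3.24% lower, so 3 higher in 123 is near the background. An unadjusted p under 0.05 was found for 17 of the 123, also near the background (15.5% of all genes tested). A positive difference was found for 87 (50.2% of all genes tested were positive). The median was 0.16 for 31 genes of checkpoint signalling, 0.17 for 33 of recombination and the Fanconi pathway, 0.18 for 12 of end joining and 0.06 for 47 of excision, mismatch and bypass repair. The S phase list, 25 genes, had a median of 0.27 with 4 higher, and the G2 and M phase list a median of 0.59 with 4 higher, among them Cdk1, the mitotic kinase. With the replicate block 11 of the 25 S phase and 20 of the 25 G2 and M phase genes were higher (9.15% of all genes). DESeq2 called 7 and 10 higher (3.56% of all genes). The part of the cell cycle lists in the repair values was not tested.

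Blm, the helicase that dissolves recombination intermediates, averaged 30.2 ± 7.44 normalized CPM in WT and rose to 50.3 ± 5.44 in Itpkb-/- libraries (0.74 on the log2 scale, adjusted p = 0.119). Rad18, a ubiquitin ligase that recruits bypass polymerases to stalled forks, rose from 42.7 ± 11.1 to 69.96 ± 3.81 (0.73, adjusted p = 0.106). Gtf2h4, a subunit of the repair and transcription factor TFIIH, rose from 13.5 ± 1.19 to 24.2 ± 5.13 (0.78, adjusted p = 0.133). With the replicate block 19 of the 123 rose and 1 fell, where it called 9.15% of all genes higher and 8.97% lower. The gene that fell was Wee1, the kinase that holds Cdk1 inactive (difference -0.39, limma, adjusted p = 0.0630 with the block and 0.230 without).

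Without 1 library the highest adjusted p was 0.305 for Blm, 0.259 for Rad18 and 0.351 for Gtf2h4 (limma). Blm and Gtf2h4 kept their call only without Itpkb-/- replicate 1 (0.115 and 0.0798). Rad18 kept it without Itpkb-/- replicate 1 (0.137) and without WT replicate 2 (0.128). The calls of Blm and Gtf2h4 ended when libraries were scaled to equal totals (0.152 and 0.164).

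**Figure D4:**
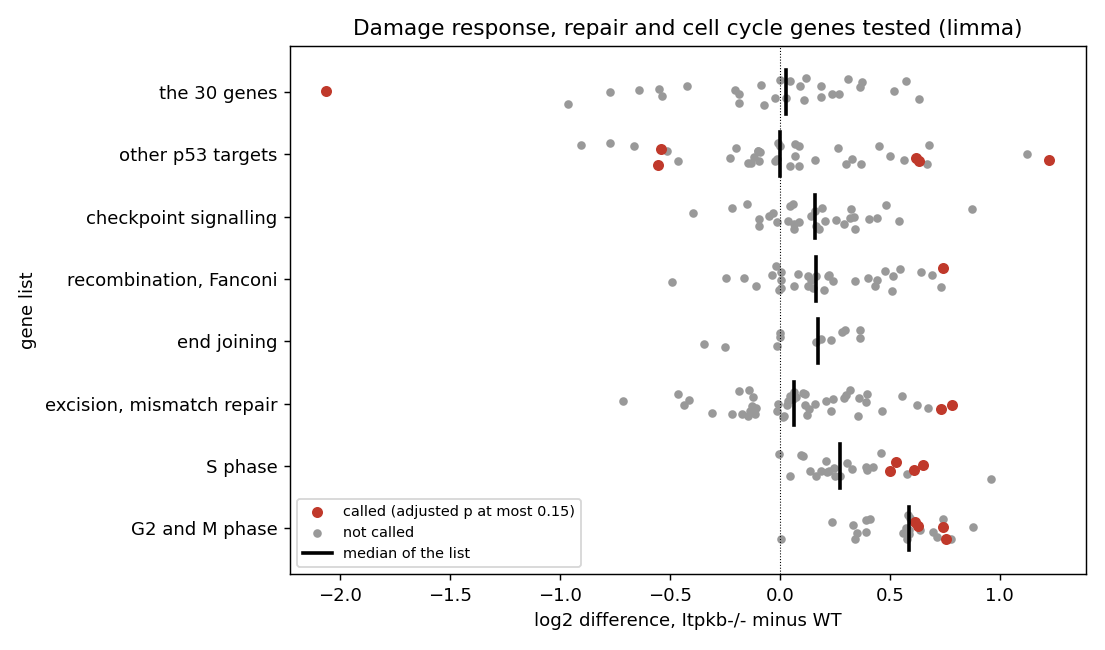
Log2 differences (Itpkb-/- minus WT) of the genes tested in 8 lists, 1 point per gene spread at random in height, red where called by limma at an adjusted p of at most 0.15, with a black bar at each median. The 30 genes and the other p53 targets centre near 0, and the S phase and G2 and M phase lists lie almost wholly above 0.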

How the data were processed

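The authors deposited 1 table of a signal, gene read counts divided by 1 factor per library. The tools named in the submitters' processing notes are CASAVA 1.8.2, cutadapt, TopHat2 2.0.8b, Partek and edgeR, with build mm10, while the series design text has TopHat 1.4.1 and Partek 6.6. RNA (1 to 5 ng) was amplified with a NuGEN Ovation kit, per the labels' protocols.

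All values (100%) were whole reads within 0.01. limma 3.58.1 (R 4.3.3) with a variance trend was fitted to log2(value + 1) for genes at 1 or more in at least 3 libraries, with Benjamini-Hochberg adjustment. edgeR 4.0.16 and DESeq2 1.42.0 were run on recovered reads. The fit was tested on simulated data. Gene positions and exon lengths are those of GENCODE M21. Members and lists were chosen with earlier results of these data known. All 30 members are named; list genes are those called, up to 4 per list by p, with Cdkn1a, and Sesn1, Wee1, Jun, Dnajb1 and Acp2 were added after their values were seen.

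Across genes, libraries sharing a number deviated together from their genotype's mean (r = 0.296, 0.268 and 0.284) and other pairs did not (r = -0.227 to -0.0475, which the centring pushes below 0). By this check the numbers were taken as pairs; the labels leave their meaning unstated. Libraries within a genotype differed by a chi-square of 5.93 to 25.2 for each degree of freedom, so none repeated another.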

Additional observations from a re-analysis of the deposited data

How the results depend on the processing

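The replicate block turned the count of genes called higher from 0 to 4 (Bax, H2afx, Brca1 and Brca2), left 1 lower, and changed no other call of the 29. The other planned settings were pseudocounts of 0.5 and 2, no filter, the study's expression limit (an average log2 value above 4), 2 other scalings, edgeR, DESeq2, no variance trend, a limit of 0.05, each library left out and both libraries numbered 2 left out. Each of these called 0 genes higher. The count of 1 lower became 0 at the study's expression limit, which Plk2 does not reach. Without 1 library the count ran from 0 to 1: without WT replicate 3 the Plk2 difference was -1.93 and no longer called, and over the 6 such fits it ran from -2.34 to -1.91. The median of the members tested was 0.10 at the expression limit, which leaves out the low genes, and ran from -0.078 to 0.057 without 1 library. Of 513 values over the 29 genes, 489 kept their direction and side of the limit and 19, of 8 uncalled genes, changed sign. Trp53 was at 0.0043 with median-of-ratios scaling, 0.0060 with DESeq2 and 0.024 without both libraries numbered 2. Rps27l was at -0.0074 with equal library totals and Chek1 at 0.0050 without both libraries numbered 2. Over the 6 fits without 1 library the log2 difference ran from -0.078 to 0.061 for Trp53, -0.19 to 0.012 for Mdm2, -0.25 to 0.24 for Trp53inp1, -0.094 to 0.11 for Rps27l, -0.087 to 0.59 for Aen, -0.13 to 0.11 for Ei24 and -0.25 to 0.022 for Xpc. For the 4 genes that the replicate block called higher it ran from 0.33 to 0.81 (Bax), 0.24 to 0.36 (H2afx), 0.15 to 0.86 (Brca1) and 0.057 to 0.97 (Brca2), with no change of sign. The cause of these changes was not tested.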
